A study of Arabidopsis thaliana with 12 samples.

Results

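The zygote of Arabidopsis thaliana divides into an upper apical cell (AC) and a lower basal cell (BC), and the transcriptomes of these daughter cells were compared here across all genes. The comparison used 6 of the 12 libraries of the study, 3 of AC and 3 of BC. All plants were of the Col ecotype and were grown in a greenhouse under long days. No mutant, transgene or treatment was part of the design. Seeds were softened with cell wall enzymes, embryos were freed by hand with glass needles, the cells were parted by laser microdissection, and several cells were pooled for each library. The stage is given as 2-celled embryo on the samples and as 1-cell embryo in the design text, both of which describe an embryo just after the first division of the zygote. The remaining 6 libraries held the embryo proper (32E) and the suspensor (32S) of 32-cell embryos, 3 each, and are used here for the spread between replicates and for the later level of a gene. Each library listed 32399 genes in FPKM, a read count scaled to the length of the transcript and to the number of mapped fragments of the library. Of these, 17060 genes had more than 1 FPKM in at least 3 of the 12 libraries and were tested.

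The first division of the zygote is asymmetric. The small, dense AC gives rise to nearly the whole embryo, while the long, vacuolated BC gives rise to the suspensor, a file of cells that holds and feeds the embryo, and to the hypophysis at its base. Transcription factors of the WOX family, the auxin carrier PIN7 and a MAP kinase cascade are known for their part in setting these fates. The comparison asks which functions, gene families and single genes separate the cells right after they form.

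The FPKM values of a library summed to between 833418 and 853363 over the 6 libraries. Between 13555 and 14562 genes were above 1 FPKM in an AC library and between 13034 and 13784 in a BC library. Pearson's r of log2(FPKM + 1) was computed across all 32399 listed genes, many of them at 0. It was 0.974 to 0.986 among AC libraries, 0.985 to 0.991 among BC libraries and 0.869 to 0.902 between an AC and a BC library. Markers of the surrounding tissues were low. Of 11 endosperm genes, 6 were listed at 0 in all 6 libraries, and the list summed to between 41.8 and 45.4 FPKM in AC and between 16.3 and 30.6 FPKM in BC, most of it EDE1, a microtubule gene that was not called. Of 12 seed coat genes, 7 were at 0 in all 6 libraries (sums of 8.9 to 13.4 FPKM in AC and 23.8 to 28.4 FPKM in BC, most of it MUM4). Egg cell genes summed to between 73.0 and 81.6 FPKM in AC and between 21.6 and 37.2 FPKM in BC, and synergid and central cell genes to between 21.6 and 23.4 FPKM in AC and between 27.2 and 33.2 FPKM in BC. MYB98, AGL61 and NTA of this last list were at 0 throughout. Few of these markers were tested, and some were called. Of 3 tested endosperm genes 1 was higher in AC and none in BC, and of 2 seed coat genes none and 1. Of 4 egg cell genes 1 was higher in AC and 1 in BC, and of 3 synergid and central cell genes 1 and 1. A gene of this last list had 10 FPKM or more in every BC library and under 1 FPKM in every AC library. The part of these tissues in the results was not tested. WOX9, a homeobox gene of the basal lineage, had 1.43, 0.04 and 0.14 FPKM in the AC libraries, against 632, 658 and 608 FPKM in the BC libraries. ROPGEF5, which encodes an activator of ROP GTPases, had 74.2, 94.4 and 84 FPKM in the AC libraries and was listed at 0 in every BC library. Each of these genes was at no more than a trace in the other cell. Both stand out by their difference in these same data, so they do not measure how cleanly the cells were parted. Other genes higher in BC were well above a trace in AC, such as the sugar carrier SWEET8, with means of 360.3 FPKM in AC and 2144 FPKM in BC. Of the 3131 genes found higher in BC, 1108 had their highest AC value in the first AC library, 1081 in the second and 491 in the third, and their summed level in these libraries was 26.1%, 27.3% and 23.0% of the BC mean. Of the 3237 genes found higher in AC, 373 had their highest BC value in the first BC library, 906 in the second and 1154 in the third, with summed levels at 24.1%, 28.1% and 28.1% of the AC mean. Each library is a pool of cells, so fewer expressing cells and less RNA per cell cannot be told apart.

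The cells differed across much of the transcriptome. A total of 3237 genes were higher in AC, 19.0% of those tested, and 3131 were higher in BC, 18.4% (limma on log2(FPKM + 1), with a fold change of 1 or more on the log2 scale and a p below 0.01 after Benjamini-Hochberg adjustment). The 3 libraries of each cell did not overlap in 32.9% of the tested genes with AC higher and in 33.6% with BC higher. Calls leaned to AC among weakly expressed genes and were rarer among strongly expressed ones. Of 1977 genes whose higher mean lay between 1 and 5 FPKM, 32.4% were higher in AC and 16.5% in BC, while of 290 genes above 500 FPKM, 6.9% were higher in AC and 7.9% in BC. Genes without introns made up 18.6% of those higher in AC and 16.3% of those higher in BC, against 13.5% of the genes not called. Median transcript length was alike, 1790 bases for genes higher in AC, 1822 bases for genes higher in BC and 1720 bases for the rest. In the scatter of mean levels the called genes lay on both sides of the diagonal in each class of level above 1 FPKM.

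**Figure D1:**
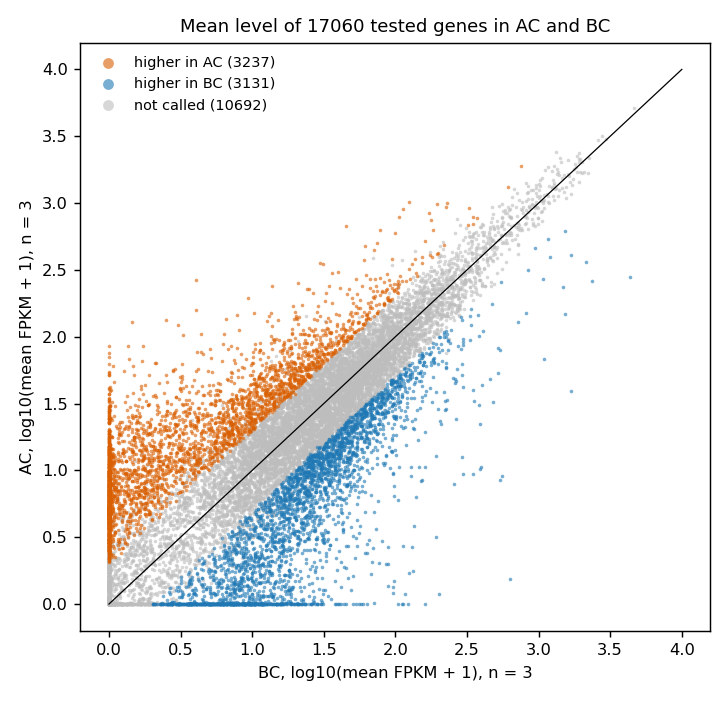
Mean FPKM in AC (vertical, log10 of FPKM + 1) against mean FPKM in BC (horizontal, same scale) for the 17060 tested genes, 3 libraries each. Orange points are the 3237 genes higher in AC, blue points the 3131 genes higher in BC and grey points the rest.

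The largest shifts in level mark what each cell made most of. Among called genes, those with the largest surplus of mean FPKM in AC included chaperones, the transcription factor RKD3 and the lipid transfer protein LTP3. LTP3 had 1021, 825 and 1110.3 FPKM in the AC libraries, against 219.9, 173 and 190 FPKM in the BC libraries, and it averaged 3422 FPKM in 32E and 14.1 FPKM in 32S. UBC20, a ubiquitin-conjugating enzyme of the mitotic cyclosome, had 859, 924 and 961 FPKM in the AC libraries, against 320.4, 291 and 372 FPKM in the BC libraries. CLPS5, a gene similar to the RNA kinase CLP1, had 894, 911 and 911 FPKM in the AC libraries, against 95.5, 134 and 109 FPKM in the BC libraries. Only genes whose AC and BC libraries do not overlap were ranked, so the lowest AC library stood above the highest BC library by selection. The genes with the largest surplus in BC were led by AT3G59480, which encodes a kinase of the pfkB sugar kinase family. It had 257, 322 and 255 FPKM in the AC libraries, against 4504, 4297 and 4139 FPKM in the BC libraries (log2 fold change -3.96 ± 0.15 (SE), limma adjusted p = 7.27e-09). GDH2, a mitochondrial glutamate dehydrogenase, had 211, 333 and 239 FPKM in the AC libraries, against 2464, 2247 and 2411 FPKM in the BC libraries. SWEET8, a sugar efflux carrier, and ENODL1, a cell surface protein related to copper proteins, averaged 360.3 ± 55.2 FPKM in AC and 2144 ± 223 FPKM in BC, and 148 ± 29.1 FPKM in AC and 1532 ± 129.8 FPKM in BC (SD, n = 3 each). AT4G04090, a BTB/POZ domain gene, had 29.7, 58.6 and 27.1 FPKM in the AC libraries, against 1615, 1632 and 1837 FPKM in the BC libraries, and it averaged 13.8 FPKM in 32E and 8591 FPKM in 32S. The cytochrome P450 gene CYP78A5 (KLUH), whose enzyme promotes organ growth, was high in both cells but higher in BC, with 423, 431 and 374 FPKM in AC and 1722, 1682 and 1662 FPKM in BC.

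Some genes were on in a single daughter cell. With on set at 10 FPKM or more in all 3 libraries of a cell and off at under 1 FPKM in all 3 libraries of the other, 189 genes were on only in AC, 0.583% of the genes listed, and 158 only in BC, 0.488%. Of the AC-only genes, 91 were listed at 0 in every BC library, and of the BC-only genes, 84 were listed at 0 in every AC library. The mean level in the expressing cell ran from 10.7 to 127 FPKM for AC-only genes and from 10.8 to 200.8 FPKM for BC-only genes. Without the third BC library 307 genes met the rule for AC, and without the first AC library 245 met the rule for BC.

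AC-only genes were led by AT1G31370, a gene related to ubiquitin-specific proteases, which had 123, 120 and 138 FPKM in AC, against 0, 0.49 and 0.86 FPKM in BC. TLP8, a tubby-like protein, had 60.9, 85.3 and 61.5 FPKM in the AC libraries and was listed at 0 in every BC library. CAD9, related to cinnamyl alcohol dehydrogenases, had 74.1, 64.1 and 83.9 FPKM in the AC libraries and was listed at 0 in every BC library. MKK7, a MAP kinase kinase, had 55.4, 51.8 and 52.7 FPKM in the AC libraries and was listed at 0 in every BC library. RKD2, a transcription factor of the RWP-RK family known from the egg cell, had 48.7, 46.4 and 58.1 FPKM in the AC libraries and was listed at 0 in every BC library. Their separation in all 6 libraries follows from the rule that picked them. The AP2/ERF factor ABI4 averaged 54.5 ± 11.9 FPKM in AC and 0.28 ± 0.485 FPKM in BC, and the glutathione transferase gene ERD9 averaged 59.3 ± 15 FPKM in AC and 0.07 ± 0.116 FPKM in BC (SD, n = 3 each). Membrane carriers were among them as well, with ABCG1, an ABC transporter of the cell surface, at 81.2, 79.4 and 92.1 FPKM in AC and 0.25, 0.28 and 0.52 FPKM in BC.

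BC-only genes held several calcium and membrane proteins. ANNAT4, an annexin that binds membranes in a calcium-dependent way, had 0, 0.54 and 0 FPKM in AC and 196, 204 and 202 FPKM in BC. CML11, a calmodulin-like protein, was listed at 0 in every AC library and had 101, 94.5 and 114 FPKM in the BC libraries. DTX1, a MATE efflux carrier, was listed at 0 in every AC library and had 170.2, 155 and 155 FPKM in the BC libraries. Inositol oxygenase opens the ring of inositol on the way to wall sugars, and both of its tested genes were on only in BC. MIOX4 was listed at 0 in every AC library and had 127, 121 and 117 FPKM in the BC libraries, and MIOX2 averaged 29.5 FPKM there. WVD2, a microtubule-associated protein of the TPX2 family that affects helical growth, was listed at 0 in every AC library and had 116, 97.4 and 119 FPKM in the BC libraries. LATE, a zinc finger gene, was listed at 0 in every AC library and had 117, 115 and 102 FPKM in the BC libraries. ABCG25, known as an abscisic acid exporter, had 0, 0 and 0.03 FPKM in AC and 77.5, 65 and 65.9 FPKM in BC. The annexin family as a whole counted 1 of 5 higher in AC and 3 in BC. GAT1_2.1 (AT1G15040), a glutamine amidotransferase-like gene, had 0.07, 0.55 and 0 FPKM in AC and 102, 88.5 and 96.5 FPKM in BC.

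The on and off genes had different levels later. Of the 189 AC-only genes, 100 averaged 10 FPKM or more in 32E and 68 in 32S, and 7 were under 1 FPKM in both. Of the 158 BC-only genes, 17 averaged 10 FPKM or more in 32E and 44 in 32S, and 37 were under 1 FPKM in both. MIOX4 was among those 37, at 0 FPKM in both 32-cell tissues. AT4G24130, a DUF538 gene just short of the BC-only rule, averaged 0.763 ± 1.32 FPKM in AC and 131 ± 2.21 FPKM in BC (SD, n = 3 each) and 0.133 FPKM in 32E and 1005 FPKM in 32S. The plot of on and off genes by library shows the split that the rule set in the 6 libraries, beside the levels in 32E and 32S. The W-box core TTGAC, a motif bound by WRKY factors, was present on either strand in the 250 bases before the start of 81 of 186 AC-only genes with such a window (43.5%) and 87 of 154 BC-only genes (56.5%), beside 45.0% of 26711 protein-coding genes. Of all genes called higher in AC 44.1% held it, and of those called higher in BC 47.9%, beside 44.7% of the tested genes. Other motifs were read too. The G-box CACGTG was in 7.53% of AC-only and 11.7% of BC-only genes, and the heat shock element GAANNTTC in 11.8% and 7.14%.

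**Figure D2:**
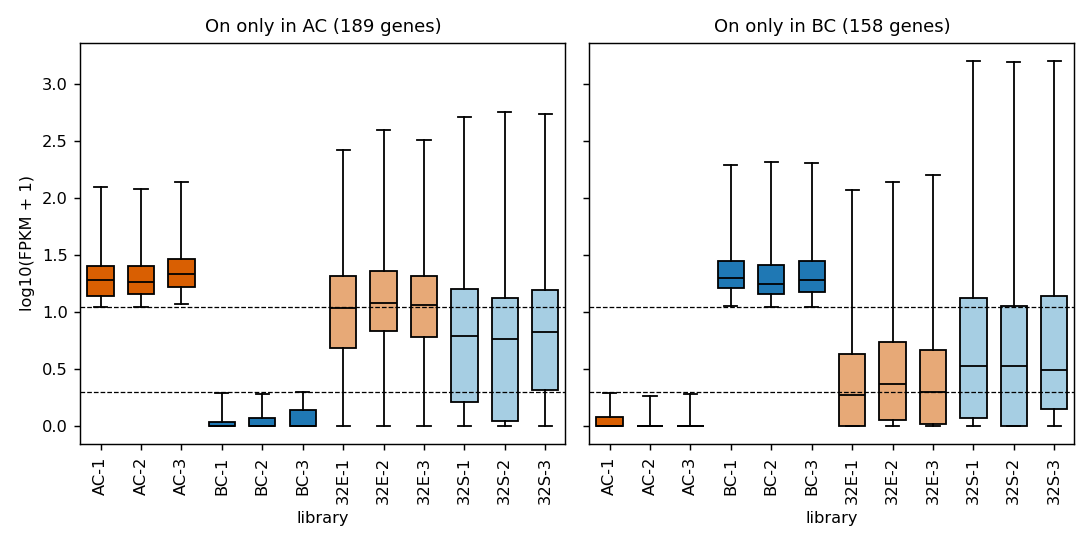
FPKM (log10 of FPKM + 1, vertical) of the 189 genes on only in AC (left panel) and the 158 genes on only in BC (right panel) in each of the 3 AC, 3 BC, 3 32E and 3 32S libraries. Boxes span the quartiles with the median as a line, whiskers reach the lowest and highest gene, and dashed lines mark the limits of 10 and 1 FPKM.

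Transcription factors as a group leaned to AC. The families follow a list of expressed factors that the study drew up on these libraries, so their counts are not independent evidence. Of 902 tested factors, 231 were higher in AC and 141 in BC, shares of 25.6% and 15.6% beside 19.0% and 18.4% of all tested genes. Weakly expressed genes leaned to AC in general, with 32.4% higher in AC and 16.5% in BC between 1 and 5 FPKM. The factors were not set beside genes of like level, so the part of level in their lean was not tested. The B3 family contributed 15 of 38 to AC and 1 to BC. Its member MEE45 had 45, 37.5 and 36.6 FPKM in the AC libraries and was listed at 0 in every BC library, and AT3G19184 had 63.1, 52.8 and 61 FPKM in the AC libraries, against 0.05, 0.16 and 1.21 FPKM in the BC libraries. The B3 gene higher in BC was FUS3, a regulator of seed maturation. Among bHLH factors 22 of 64 were higher in AC and 6 in BC, and among ERF factors 21 of 78 and 10. ERF71, known from the response to low oxygen, had 181, 182 and 221 FPKM in AC, against 0.1, 14.4 and 10.4 FPKM in BC. RWP-RK factors of the Nin-like family summed to 802 FPKM in AC and 123 FPKM in BC, and RKD3 supplied most of it, with 744, 586 and 680.5 FPKM in AC against 40.3, 39.5 and 52.5 FPKM in BC (log2 fold change 3.90 ± 0.17 (SE), limma adjusted p = 2e-08). RKD3 averaged 104 FPKM in 32E and was listed at 0 in 32S.

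Other families leaned to BC. Of 13 AP2 factors 1 was higher in AC, while 6 were higher in BC. Those higher in BC included 4 PLETHORA genes, which maintain stem cells of the root. PLT2 had 26.8, 19 and 14.1 FPKM in AC and 118, 114 and 115 FPKM in BC, PLT1 averaged 1.52 ± 1.75 FPKM in AC and 24.2 ± 1.8 FPKM in BC, and PLT3 and PLT5 were listed at 0 in every AC library with means of 11.7 and 10.6 FPKM in BC. TOE3, also of this family, had 0.07, 1.76 and 0 FPKM in AC and 52.3, 48.1 and 48.6 FPKM in BC (log2 fold change -5.14 ± 0.33 (SE), limma adjusted p = 2.06e-07). The AP2 gene higher in AC was WRI1, a regulator of oil synthesis. Of 9 WOX factors 3 were higher in BC and none in AC. WOX8 had 8.99, 7.02 and 9.35 FPKM in AC, against 359, 325 and 366 FPKM in BC (log2 fold change -5.22 ± 0.12 (SE), limma adjusted p = 5.4e-10). Of 14 LBD factors 2 were higher in AC and 6 in BC, and they included both LBD42, which had 45.1, 21.4 and 13.5 FPKM in the AC libraries and was listed at 0 in every BC library, and LBD41, with 1.67, 0 and 0 FPKM in AC and 44.2, 39.2 and 53.2 FPKM in BC.

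The WRKY family was split, with 7 of 31 tested genes higher in AC and 6 in BC. WRKY2, which activates WOX8 in the zygote, had 1.88, 5.92 and 0 FPKM in AC, against 45.5, 40.0 and 40.0 FPKM in BC (log2 fold change -3.98 ± 0.54 (SE), limma adjusted p = 5.74e-05). WRKY28 had 0, 8.44 and 0 FPKM in AC and 133, 136 and 134 FPKM in BC. WRKY28 was thus at 0 in all but 1 of the AC libraries. WRKY22, known from immune signalling, ran the other way, with 62.1, 68 and 72.9 FPKM in AC and 0, 0 and 1.17 FPKM in BC. Of 17 heat shock factors 4 were higher in AC and 2 in BC, and of 4 EIN3-like factors 3 were higher in AC and none in BC. The NF-Y subunits were divided, with 2 of 9 NF-YA genes higher in AC and 2 in BC, 1 of 10 NF-YB genes in AC and 2 in BC, and 2 of 12 NF-YC genes in AC and 3 in BC. NF-YC7 had 48.6, 49.1 and 54.7 FPKM in AC and 0.11, 0.17 and 1.2 FPKM in BC, and EIL1, of the ethylene pathway, had 22, 21.6 and 24.4 FPKM in AC and 0.03, 0 and 0 FPKM in BC.

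Genes known to mark the lineages were only partly divided. Of 10 tested markers of the basal cell and suspensor, 6 were higher in BC and 1 was higher in AC, and the whole list summed to 112, 108 and 129 FPKM in the AC libraries, against 1111, 1129 and 1088 FPKM in the BC libraries. The 6 were WOX8, WOX9, PIN7, the auxin synthesis genes YUC3 and YUC9, and the sucrose carrier SUC3. YUC4 was the exception, with 43.2, 51.1 and 53.4 FPKM in AC and 9.69, 18.9 and 9.94 FPKM in BC. The level of the zygote gene GRD was under 1 FPKM in all but 1 of the 6 libraries. Of 18 tested markers of the apical cell and embryo proper, 5 were higher in AC and 4 in BC, so this list gave no common direction. HAN, a GATA factor that sets the border of the embryo proper, had 259.7, 246 and 204 FPKM in AC, against 72.6, 82.2 and 60.3 FPKM in BC. BDL, an Aux/IAA repressor, had 28.1, 25.1 and 18.4 FPKM in AC and 0, 0 and 1.4 FPKM in BC, while MP, the auxin response factor it binds, had 10.3, 7.66 and 13.5 FPKM in AC and 45.5, 38.4 and 41.5 FPKM in BC. PHB, a class III HD-ZIP factor, averaged 9.23 ± 2.46 FPKM in AC and 0.203 ± 0.284 FPKM in BC, and DRN, a factor of cotyledon and apical fate, averaged 39.5 ± 19 FPKM in AC and 9.37 ± 0.859 FPKM in BC (SD, n = 3 each). FUS3 was listed at 0 in every AC library and had 23.4, 17.3 and 20.5 FPKM in the BC libraries, L1L, a relative of LEC1, averaged 0.51 ± 0.883 FPKM in AC and 7.44 ± 0.522 FPKM in BC, and the epidermal factor PDF2 averaged 2.25 ± 0.719 FPKM in AC and 12.7 ± 1.16 FPKM in BC. DRNL and ABI3 were at 0 in all 6 libraries.

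Genes that act in the asymmetry of the zygote also went both ways. Of 17 tested members 4 were higher in AC and 2 in BC. The MAP kinase gene MPK6 had 65, 60.0 and 79.4 FPKM in AC and 23.8, 30.0 and 23.8 FPKM in BC, while MKK5, which encodes an upstream kinase of MPK6, had 7.25, 10.6 and 5.87 FPKM in AC and 25.4, 20.4 and 25.4 FPKM in BC. BSK2, related to the kinase SSP that activates this cascade, had 44.3, 44.4 and 48.1 FPKM in AC and 9.46, 25.4 and 9.68 FPKM in BC, a difference whose call was lost without the third AC, the first BC or the third BC library (limma adjusted p = 0.011, 0.0148 and 0.0143). The receptor kinase gene ERL1 averaged 5.97 ± 3 FPKM in AC and 0.96 ± 0.171 FPKM in BC, and YDA, at the head of the cascade, averaged 43.2 ± 6.3 FPKM in AC and 36.1 ± 1.84 FPKM in BC and was not called (SD, n = 3 each). Of 23 genes of stem cells and patterning 1 was higher in AC, while 5 were higher in BC. The AC gene was the leaf polarity factor AS1, which had 4.78, 7.32 and 6.23 FPKM in the AC libraries and was listed at 0 in every BC library. The BC genes were the 4 PLETHORA genes and KAN1, a factor of organ polarity, which was listed at 0 in every AC library and had 9.13, 8.28 and 10.07 FPKM in the BC libraries.

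Genes that act in mitosis were mostly higher in AC. They comprise B-type cyclins and their CDKB partners, spindle proteins, and proteins of the phragmoplast, which builds the new cell wall. Of 24 tested members, 16 were higher in AC and none in BC, 66.7% beside 19.0% of all genes, and their median log2 fold change was 2.1 on the log2(FPKM + 1) scale. They summed to 3623, 4121 and 4367 FPKM in the AC libraries, against 1188, 1181 and 1506 FPKM in the BC libraries. KNOLLE, the syntaxin that fuses vesicles at the cell plate, had 147, 139 and 165 FPKM in AC, against 5.02, 3.66 and 19.1 FPKM in BC (log2 fold change 4.19 ± 0.42 (SE), limma adjusted p = 6.01e-06). CYCB1;1 had 299, 348 and 404 FPKM in AC, against 25.7, 32.5 and 32.8 FPKM in BC (log2 fold change 3.49 ± 0.19 (SE), limma adjusted p = 9.46e-08). CYCB1;3 had 308, 375 and 376 FPKM in AC, against 15.5, 11.4 and 60.1 FPKM in BC. The third BC library was the highest of its cell for both KNOLLE and CYCB1;3, and still lay below every AC library. MAD2, of the spindle checkpoint, had 284, 308 and 310.1 FPKM in AC and 18.5, 18.5 and 67.8 FPKM in BC, and TPX2, a spindle assembly factor, had 107, 136 and 149 FPKM in AC and 9.33, 13.3 and 12.2 FPKM in BC. CYCB2;1 had 19.8, 22.7 and 27.7 FPKM in the AC libraries and was listed at 0 in every BC library. The 8 members not called included CYCB3;1 (166 ± 14.3 FPKM in AC and 132 ± 6.34 FPKM in BC), CDKB1;1 (89.1 ± 23.3 FPKM in AC and 86.1 ± 12.1 FPKM in BC), the centromere histone CENH3 (98.8 ± 11 FPKM in AC and 90.8 ± 1.2 FPKM in BC) and the kinesin TES (34.8 ± 2.7 FPKM in AC and 27.2 ± 1.57 FPKM in BC; SD, n = 3 each).

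**Figure D3:**
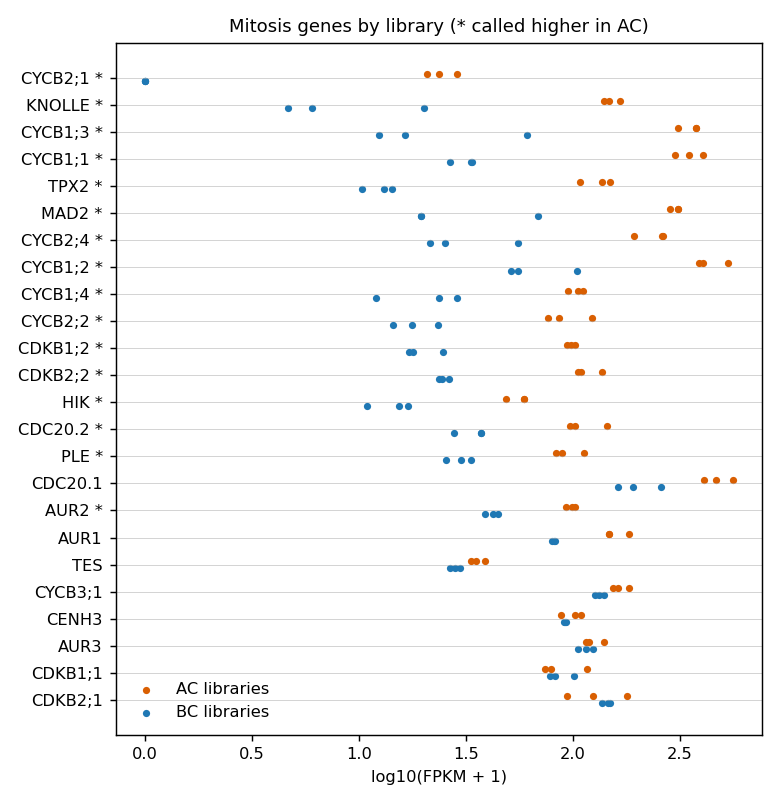
FPKM (log10 of FPKM + 1, horizontal) of the 24 tested genes of the mitosis list in the 3 AC libraries (orange) and the 3 BC libraries (blue), ordered by log2 fold change with the largest at the top. For the 16 genes with a star, called higher in AC, every AC point lies to the right of every BC point, and the 8 others differ less or overlap.

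Many genes of the G2 to M transition carry the MSA core AACGG, a motif bound by MYB factors of the cell cycle, in their promoters. In the 250 bases before the annotated transcript start, on either strand, it was present in 12 of the 16 mitosis genes higher in AC (75.0%), in 3 of the 8 that were not called (37.5%) and in 20.6% of all 26711 protein-coding genes with such a window. Of the genes called higher in AC 25.0% held it, and of those called higher in BC 22.5%. The promoters of 4 members named above that hold the motif are shown to let its place be read, with the motif or its reverse complement CCGTT in capitals, 5′ to 3′ on the strand of the gene, from the TAIR10.1 assembly of RefSeq.
CYCB1;1 promoter, chr4:17624309-17624558, minus strand: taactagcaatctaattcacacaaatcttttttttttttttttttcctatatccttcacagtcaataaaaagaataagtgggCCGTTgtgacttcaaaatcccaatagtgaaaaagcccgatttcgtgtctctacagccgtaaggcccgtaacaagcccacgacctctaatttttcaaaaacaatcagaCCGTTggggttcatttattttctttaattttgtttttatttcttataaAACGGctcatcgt
KNOLLE promoter, chr1:2711001-2711250, minus strand: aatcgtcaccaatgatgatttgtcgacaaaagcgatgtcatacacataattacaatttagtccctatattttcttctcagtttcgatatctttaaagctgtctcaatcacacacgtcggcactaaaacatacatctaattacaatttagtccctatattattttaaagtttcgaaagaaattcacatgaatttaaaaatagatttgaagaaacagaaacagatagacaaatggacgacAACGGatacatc
CYCB1;3 promoter, chr3:3627274-3627523, minus strand: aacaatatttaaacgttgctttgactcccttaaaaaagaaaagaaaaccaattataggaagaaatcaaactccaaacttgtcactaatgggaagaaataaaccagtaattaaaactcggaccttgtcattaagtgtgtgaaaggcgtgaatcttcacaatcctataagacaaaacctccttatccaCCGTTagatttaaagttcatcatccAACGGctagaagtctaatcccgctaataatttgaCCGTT
MAD2 promoter, chr3:9502806-9503055, plus strand: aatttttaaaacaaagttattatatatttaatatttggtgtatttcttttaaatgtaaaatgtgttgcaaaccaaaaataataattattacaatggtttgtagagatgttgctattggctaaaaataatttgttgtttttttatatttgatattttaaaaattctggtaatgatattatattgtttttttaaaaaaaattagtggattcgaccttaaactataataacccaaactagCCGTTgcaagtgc
CYCB1;1 and CYCB1;3 held 3 matches each, and KNOLLE and MAD2 1 each. A match is a description of the sequence and not a measured binding site.

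Other cell cycle genes did not move as one. Of 27 tested genes of G1 and S phase control, 5 were higher in AC and 6 in BC. The CDK inhibitor genes KRP7 and KRP3 averaged 15.9 ± 3.46 FPKM in AC and 0 FPKM in BC, and 12.8 ± 2.38 FPKM in AC and 0.703 ± 1.09 FPKM in BC, whereas KRP6 averaged 2.82 ± 2.01 FPKM in AC and 25.4 ± 2.98 FPKM in BC (SD, n = 3 each). Among D-type cyclins, CYCD6;1 averaged 12.8 ± 0.605 FPKM in AC and 1.26 ± 2.12 FPKM in BC and CYCD7;1 was listed at 0 in every AC library and had 12.6, 9.01 and 11.8 FPKM in the BC libraries. Of 25 replication genes, 5 were higher in AC and 2 in BC. The members of the replicative MCM helicase went both ways, with MCM2 at 34 ± 8.31 FPKM in AC and 10.07 ± 1.08 FPKM in BC, and MCM4 at 19.2 ± 3.21 FPKM in AC and 48.2 ± 3.28 FPKM in BC. Of 28 kinesins, 9 were higher in AC and 1 in BC. Of 16 tubulins, 5 were higher in AC and none in BC, and without the third AC or the second BC library 2 were higher in AC. PAKRP1, a kinesin of the phragmoplast, had 27, 24.5 and 35.4 FPKM in AC and 1.63, 4.46 and 1.97 FPKM in BC.

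Genes of DNA methylation and chromatin silencing were also more often higher in AC. Of 23 tested members 9 were higher in AC and 1 in BC, with a median log2 fold change of 0.69. DRM1, a de novo DNA methyltransferase, had 41.1, 49.6 and 43.6 FPKM in AC, against 2.06, 2.34 and 2.1 FPKM in BC (log2 fold change 3.85 ± 0.27 (SE), limma adjusted p = 4.74e-07). Its paralog DRM2, the main de novo enzyme of the adult plant, averaged 45.9 ± 3.69 FPKM in AC and 46.2 ± 2.88 FPKM in BC (SD, n = 3 each), and the groups overlapped. LHP1, which reads H3K27 methylation, averaged 13 ± 3.51 FPKM in AC and 0.853 ± 0.198 FPKM in BC, and EMF2, of Polycomb complex PRC2, averaged 64.7 ± 7.21 FPKM in AC and 17.7 ± 3.64 FPKM in BC. The list has members that remove methylation as well. The DNA demethylase genes ROS1 and DME averaged 8.45 ± 0.97 FPKM in AC and 0.45 ± 0.632 FPKM in BC, and 2.43 ± 0.68 FPKM in AC and 0.11 ± 0.03 FPKM in BC, and the histone demethylase gene REF6 averaged 27.1 ± 4.55 FPKM in AC and 9.01 ± 0.552 FPKM in BC (SD, n = 3 each). The gene higher in BC was FIE, also of PRC2, with 53.1 ± 3.28 FPKM in AC and 118 ± 7.82 FPKM in BC.

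Of 21 small RNA genes 6 were higher in AC, and all of these encode Argonautes, the proteins that carry small RNAs to their targets. AGO5, known from the germ line, had 244, 223 and 215 FPKM in AC, against 11.8, 47.8 and 12.3 FPKM in BC (log2 fold change 3.50 ± 0.40 (SE), limma adjusted p = 1.52e-05). AGO8 had 53.6, 57.4 and 53.2 FPKM in AC and 1.53, 5.82 and 1.88 FPKM in BC, and AGO2 had 26.2, 23.2 and 22.8 FPKM in AC and 0, 6.84 and 2.28 FPKM in BC. For each of these genes the second BC library was the highest of its cell. The 2 members higher in BC were DCL1, the Dicer of microRNAs, with 1.14, 0.36 and 0.78 FPKM in AC and 5.07, 3.88 and 4.4 FPKM in BC, and RDR1, an RNA-dependent RNA polymerase, with 0.12, 0 and 0 FPKM in AC and 3.79, 5.05 and 8.3 FPKM in BC.

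Chaperone genes were strongly expressed in both cells, with a summed level that was higher in AC. Of 13 tested members of the list 4 were higher in AC and none in BC, and the list summed to 5466, 5801 and 5553 FPKM in the AC libraries, against 2299, 2777 and 2556 FPKM in the BC libraries. HSP17.6A had 1037, 957 and 1032 FPKM in AC and 129.7, 333 and 225 FPKM in BC (log2 fold change 2.23 ± 0.63 (SE), limma adjusted p = 0.00895), and it averaged 766 FPKM in 32E and 2211 FPKM in 32S. The second BC library was the highest of its cell. HSFA2, the heat-induced transcription factor, had 205, 191 and 235 FPKM in AC and 16.1, 49.4 and 29.9 FPKM in BC, again with the second BC library highest. The call of HSP17.6A was lost when any 1 of the 6 libraries was left out (limma adjusted p = 0.01 to 0.0417). HSP70 averaged 939 ± 82.8 FPKM in AC and 224 ± 23.3 FPKM in BC, and HSP101 169.8 ± 23 FPKM in AC and 52.2 ± 11.6 FPKM in BC (SD, n = 3 each). In the wider family of heat shock proteins 13 of 61 were higher in AC and 3 in BC, 21.3% and 4.9% beside 19.0% and 18.4% of all tested genes. Of these, the plastid chaperone gene HSP21 had 167, 138 and 144 FPKM in AC and 0, 10.05 and 27.4 FPKM in BC. Its call was lost without any 1 of the AC libraries, the first BC or the second BC library (limma adjusted p = 0.0118 to 0.0231). Without the third AC or the first BC library 2 of the 4 list genes stayed called, and the family count higher in AC was 8, 8, 7 and 6 without the first, the second or the third AC library or the first BC library. Genes that respond to wounding, touch or jasmonate were measured as signs of handling. Of 15 tested members 3 were higher in AC and none in BC, 20% and 0% beside 19.0% and 18.4% of all tested genes, and the list summed to 1028, 1019 and 985 FPKM in the AC libraries, against 294, 414 and 367 FPKM in the BC libraries. TCH2, a touch-induced calmodulin-like gene, had 536, 534 and 479 FPKM in AC and 133, 172 and 175 FPKM in BC. ZAT12, a stress zinc finger gene, had 231, 227 and 253 FPKM in AC and 42.1, 78.8 and 50.4 FPKM in BC. WRKY40, JAZ8, LOX2, LOX3, LOX4, AOS, AOC1 and ERF1 of this list were at 0 in all 6 libraries. The part of handling in these differences was not tested.

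Genes that remodel the cell wall differed from family to family. Expansins and pectin genes were more often higher in BC, and cellulose synthases and their relatives in AC. Of 17 expansins, which loosen walls, 2 were higher in AC and 7 in BC, and the family summed to 49.2, 85.6 and 40.4 FPKM in the AC libraries, against 512, 517 and 509 FPKM in the BC libraries. EXPA14 made up most of the BC sum, with 5.53, 18 and 5.49 FPKM in AC and 398, 407 and 384 FPKM in BC (log2 fold change -5.42 ± 0.34 (SE), limma adjusted p = 1.79e-07). EXPA15 had 10.2, 19.6 and 6.36 FPKM in the AC libraries and was listed at 0 in every BC library. Of 36 pectin methylesterases and their inhibitors, 7 were higher in AC and 14 in BC. Of 34 pectin lyases and polygalacturonases, which cut pectin, 3 were higher in AC and 13 in BC. Of 14 genes with the catalytic domain of pectinesterases 5 were higher in AC and 4 in BC. Xyloglucan endotransglucosylases, which remodel another wall polymer, counted 3 of 14 higher in AC and 1 in BC. PGA4, a polygalacturonase known from pollen, was listed at 0 in every AC library and had 24.7, 20.12 and 23.7 FPKM in the BC libraries. The inhibitor-like gene AT1G09370 was expressed in both cells, at 42.6 ± 3.72 FPKM in AC and 400.1 ± 7.69 FPKM in BC (SD, n = 3 each). Of 16 cellulose synthases and related glucan synthases, in contrast, 9 were higher in AC and 1 in BC. CSLD5, which acts in walls of dividing cells, had 21.5, 43.3 and 28.6 FPKM in AC and 1.47, 1.2 and 2.02 FPKM in BC (log2 fold change 3.60 ± 0.28 (SE), limma adjusted p = 8.8e-07). CESA5 averaged 14.7 ± 1.67 FPKM in AC and 2.22 ± 1.4 FPKM in BC, and CESA7, known from secondary walls, 6.12 ± 1.45 FPKM in AC and 0.26 ± 0.45 FPKM in BC (SD, n = 3 each). CSLD6 was the member higher in BC, with a mean of 2.62 FPKM there and 0 in every AC library.

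Arabinogalactan proteins, glycoproteins of the cell surface, counted 5 of 33 higher in AC and 11 in BC. AGP12 was the most abundant AC gene, with 151, 129 and 153 FPKM in AC and 6.21, 6.97 and 7.38 FPKM in BC, and AGP5, a BC gene, had 0.69, 2.51 and 0 FPKM in AC and 77.3, 67.2 and 57.7 FPKM in BC. Of 24 early nodulin-like and plastocyanin-like proteins 2 were higher in AC and 8 in BC. SKU5, a surface protein of growing root cells, had 0, 0.03 and 0 FPKM in AC and 15.7, 14.1 and 18 FPKM in BC. Subtilases, secreted serine proteases, numbered 1 of 16 higher in AC and 6 in BC.

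Transporters of nutrients were more often higher in BC. Of 55 amino acid and peptide transporters 8 were higher in AC and 22 in BC, 14.5% and 40.0% beside 19.0% and 18.4% of all genes. AAP8, an amino acid permease that feeds the young seed, had 6.39, 10.09 and 6.01 FPKM in AC, against 562, 489 and 566 FPKM in BC (log2 fold change -6.02 ± 0.21 (SE), limma adjusted p = 5.67e-09). AAP1 had 2.56, 0 and 0 FPKM in AC and 48.6, 40.8 and 43.4 FPKM in BC. Of 21 sugar transporters 4 were higher in AC and 7 in BC. They summed to 1009.7, 1241 and 1066 FPKM in the AC libraries, against 3175, 3012 and 3518 FPKM in the BC libraries. SWEET8 made up most of the BC sum. STP7, a wall sugar carrier, had 1.18, 3.77 and 0 FPKM in AC, against 90.7, 80.1 and 90.5 FPKM in BC, and the inositol carrier INT4 had 0.25, 6.41 and 0 FPKM in AC, against 48.8, 53.2 and 46.6 FPKM in BC. In the second AC library both were higher than in the other AC libraries. SWEET7 ran the other way and had 13, 14.8 and 17.36 FPKM in the AC libraries and was listed at 0 in every BC library. Of 78 ABC transporters 16 were higher in AC and 24 in BC, and of 28 MATE carriers 4 and 8. Of 16 vacuolar proton pumps 1 was higher in AC and 3 in BC, 6.2% and 18.8%. The BC share was near the 18.4% of all tested genes, and the AC share was below their 19.0%. VHA-E3 was the AC gene, with 102, 99.3 and 112 FPKM in AC and 0.36, 0.15 and 15.6 FPKM in BC.

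**Figure D4:**
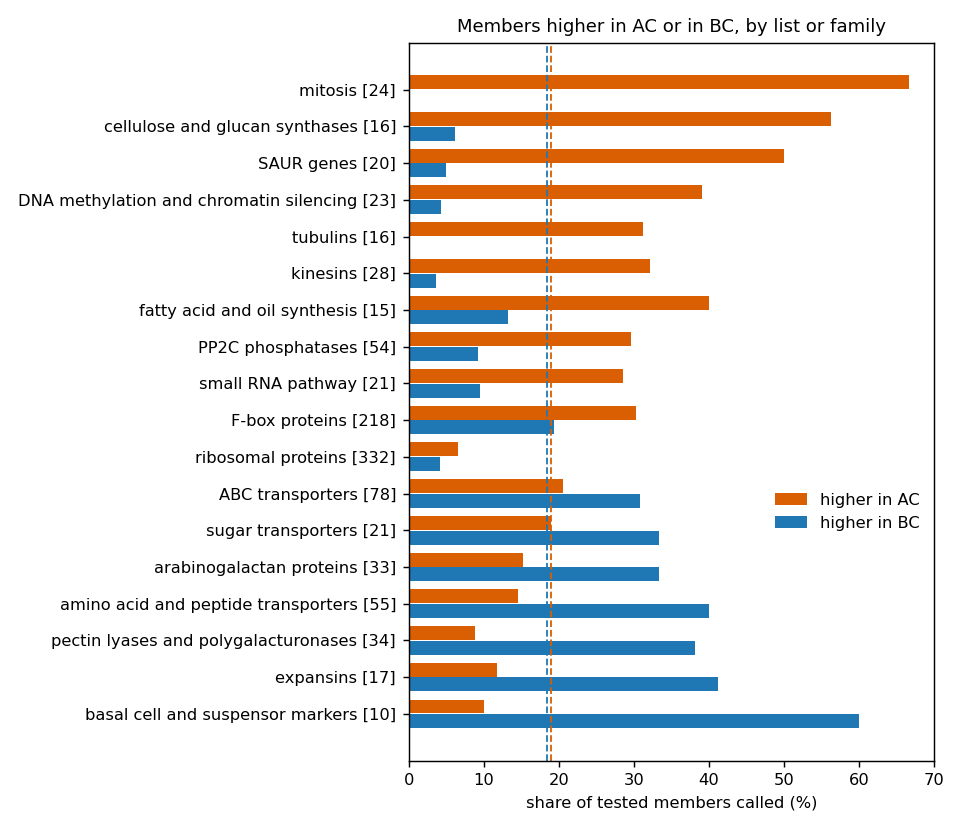
Share of tested members (percent, horizontal) called higher in AC (orange) and higher in BC (blue) for 18 lists and families, ordered by the difference of the shares, with the number tested in brackets. Dashed lines mark the shares among all tested genes, 19.0% for AC and 18.4% for BC. Mitosis genes, with 66.7% of members higher in AC, stand at the top, and basal markers, with 60.0% higher in BC, at the foot.

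Secreted signals were divided gene by gene. Of 30 peptide hormone genes 6 were higher in AC and 9 in BC, and their summed level was 448 FPKM in AC and 1611 FPKM in BC. RALF peptides change the pH of the cell wall through surface kinases. RALFL18 had 44.6, 110.4 and 46.5 FPKM in AC, against 1069, 1002 and 1200.1 FPKM in BC (log2 fold change -4.13 ± 0.39 (SE), limma adjusted p = 3.46e-06), and averaged 0.233 FPKM in 32E and 339 FPKM in 32S. RALFL8 was listed at 0 in every AC library and had 26.7, 23.2 and 31.7 FPKM in the BC libraries. RALFL33 was an AC gene, with 12.5, 12.8 and 14.2 FPKM in AC and 0.13, 0.11 and 0.53 FPKM in BC. Of 49 defensin-like and other cysteine-rich peptides 4 were higher in AC and 14 in BC, led in level by SCRL26 with 31, 26.4 and 32.7 FPKM in AC and 360.5, 347 and 444 FPKM in BC. Of 114 leucine-rich receptor kinases 23 were higher in AC and 29 in BC.

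Auxin genes went both ways. Of 24 tested genes of auxin transport, synthesis and perception 5 were higher in AC and 7 in BC. AUX1, an auxin influx carrier, had 33.2, 30.7 and 44.1 FPKM in the AC libraries and was listed at 0 in every BC library. The efflux carrier PIN7 was listed at 0 in every AC library and had 16, 14.5 and 11.8 FPKM in the BC libraries, PIN2 was listed at 0 in every AC library and had 9.1, 8.5 and 10.4 FPKM in the BC libraries, and the ABC-type auxin exporter ABCB19 had 0.67, 3.97 and 0 FPKM in AC and 22.9, 24.9 and 21.1 FPKM in BC. Of 20 small auxin-up RNA (SAUR) genes 10 were higher in AC and 1 in BC, and the BC gene, AT2G46690, was the most abundant of the family, with 15.8, 21.8 and 21.8 FPKM in AC and 111, 109.8 and 112 FPKM in BC. AT3G60690 was the most abundant of the AC genes, with 22.3, 41.8 and 23 FPKM in AC and 0, 0 and 2.07 FPKM in BC. The lists of other hormones gave no common direction. In the gibberellin list 4 of 14 were higher in AC and 3 in BC, in the cytokinin list 3 of 16 and 2, and in the brassinosteroid list 3 of 14 and 3. ARR4, a cytokinin response regulator, averaged 21.5 ± 2.8 FPKM in AC and 1.67 ± 2.9 FPKM in BC, and the DELLA repressor GAI averaged 0.393 ± 0.681 FPKM in AC and 6.45 ± 1.18 FPKM in BC (SD, n = 3 each). Of 54 type 2C phosphatases, some of which act in abscisic acid signalling, 16 were higher in AC and 5 in BC.

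Lipid genes differed by pathway. Of 15 genes of fatty acid and oil synthesis 6 were higher in AC and 2 in BC, whereas of 17 genes of beta-oxidation and the glyoxylate cycle, which break fatty acids down, none was higher in AC, while 5 were higher in BC. WRI1 had 46.2, 31.4 and 30.1 FPKM in AC, against 1.33, 4.94 and 4.39 FPKM in BC (log2 fold change 3.11 ± 0.31 (SE), limma adjusted p = 6.08e-06). BCCP2, a subunit of the acetyl-CoA carboxylase of plastids, averaged 18.4 ± 2.73 FPKM in AC and 1.01 ± 0.19 FPKM in BC, and the stearoyl-ACP desaturase gene FAB2 averaged 54.7 ± 2.06 FPKM in AC and 12 ± 8.15 FPKM in BC (SD, n = 3 each). FATB, which releases saturated fatty acids from the plastid, was higher in BC, with 23.6, 28.3 and 21.3 FPKM in AC and 100.3, 85.3 and 100.3 FPKM in BC. The thiolase gene PKT3 of beta-oxidation had 94.2, 136 and 96.5 FPKM in AC and 425, 408 and 396 FPKM in BC (log2 fold change -1.92 ± 0.14 (SE), limma adjusted p = 6.49e-07). Of 19 genes of the cuticle and epidermis 6 were higher in AC and 2 in BC. The wax exporter CER5 had 25.7, 21.3 and 37.9 FPKM in the AC libraries and was listed at 0 in every BC library, GPAT4, an enzyme of cutin synthesis, had 24.2, 23 and 33.3 FPKM in the AC libraries and was listed at 0 in every BC library, and FDH, a fatty acid elongase of the epidermis, had 16.9, 13.4 and 24.7 FPKM in AC and 0.22, 0.11 and 0.2 FPKM in BC. Of 45 tested nuclear genes of photosynthesis 6 were higher in AC and 12 in BC.

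The tested genes of a block on chromosome 2 were higher in BC almost without exception. This stretch of the nuclear genome is a copy of mitochondrial DNA, and it was singled out after its values were seen. Of 74 nuclear genes with at least 100 stretches of 50 bases that shared at least 90% of these with the mitochondrial genome, 72 lay on chromosome 2 between positions 3239693 and 3503476 (TAIR10.1). Of these, 28 were tested, none was higher in AC, while 27 were higher in BC (96.4%, beside 18.4% of all tested genes). Many of the 28 passed the filter for testing only through their BC libraries, so this share was largely set by the filter. AT2G07779, for example, had 5.85, 3.13 and 5.41 FPKM in the BC libraries and averaged 0 in AC, 32E and 32S. The levels of the 72 genes summed to 28.5, 21.1 and 23.0 FPKM in the AC libraries, against 308.7, 312.2 and 385.4 FPKM in the BC libraries. The gene of an ATP synthase subunit C, AT2G07671, had 1.35, 1.76 and 0 FPKM in AC and 65.9, 63.6 and 97.3 FPKM in BC. The cytochrome b gene AT2G07727 had 0.07, 0 and 0.05 FPKM in AC and 9.77, 7.49 and 11 FPKM in BC. At the 32-cell stage the sum was 21.0 FPKM in 32E and 25.5 FPKM in 32S (of means over 3 libraries). Reads from mitochondrial transcripts and from the nuclear copy cannot be told apart, and no gene of the organelle genomes themselves was listed. No nuclear gene shared as much sequence with the plastid genome.

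**Figure D5:**
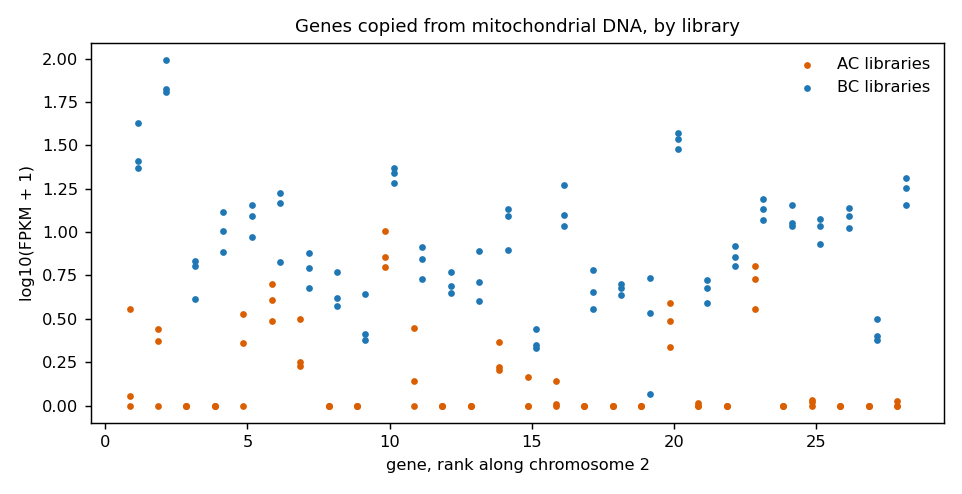
FPKM (log10 of FPKM + 1, vertical) of the 28 tested genes copied from mitochondrial DNA on chromosome 2, in order along the chromosome (horizontal, rank), in the 3 AC libraries (orange) and the 3 BC libraries (blue). Of the 28 genes, 27 were called higher in BC, and many AC points stand at 0.

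The ribosomal, proteasome, actin and histone families held few called genes, as did strongly expressed genes in general. Of 332 ribosomal protein genes 22 were higher in AC and 14 in BC, 6.6% and 4.2%. The shares were 19.0% and 18.4% among all tested genes, and 6.9% and 7.9% among those above 500 FPKM. Of 58 proteasome genes 2 were higher in AC and 4 in BC, of 19 actins and their partners 1 and 0, and of 25 genes in the histone family 2 and 0. This family does not cover every gene with a histone domain. The histone core domain had 42 tested genes, with 5 calls for AC and 2 for BC. The H2B domain had 10 tested genes, with 2 calls for BC and none for AC. The actin-depolymerizing factor gene ADF9 was the called gene among the actin partners, with 161, 168 and 128 FPKM in AC and 18.5, 22.4 and 16.2 FPKM in BC. Of 12 housekeeping genes 2 were higher in AC (16.7%, near the share of all genes) and none in BC. They were CBP20, of the nuclear cap-binding complex, and AT2G28390, a SAND family gene. The families of ubiquitin ligases were large and leaned slightly to AC. Of 218 F-box genes 66 were higher in AC and 42 in BC, 30.3% and 19.3% beside 19.0% and 18.4% of all tested genes. Of 272 RING and U-box genes 72 were higher in AC and 57 in BC, 26.5% and 21.0%, above the share of all genes in both directions. Long noncoding RNA genes leaned to BC, with 36 of 195 higher in AC (18.5%, near the share of all genes) and 55 in BC (28.2%). Antisense genes among them cannot be told apart from their partners, since the counting was not stated to use strand.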

How the data were processed

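Apical and basal cells of embryos after the first zygotic division and embryo proper and suspensor of 32-cell embryos were sequenced in 3 biological replicates each. Messenger RNA was bound on oligo-dT beads and amplified by SMART-Seq, and the reads were turned by the authors into deposited FPKM values for 32399 genes with RSEM on the TAIR10 genome. The study names Bowtie 2 as aligner for expression levels and TopHat2, set to unstranded, for its noncoding transcripts, the submitters' processing notes name TopHat2 2.1.1, and no strand option is named for RSEM. FPKM were deposited to 2 decimals without counts, and low values showed no steps of whole reads, so no counts were recovered. The study lists read totals for its libraries, which were not used here. Genes of the organelle genomes were not analysed here, and values of near-identical genes depend on how reads were divided among them.

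Values were fitted as log2(FPKM + 1) with limma 3.58.1 in R 4.3.3, with 1 model for all 4 groups and a prior that follows the mean level, for 17060 genes above 1 FPKM in at least 3 of 12 libraries. A fold change on this scale understates the change of weakly expressed genes, and none is given against a cell listed at 0 in all 3 libraries. The contrast was AC minus BC, with genes called at an absolute log2 fold change from 1 upwards and p below 0.01 after Benjamini-Hochberg adjustment. P-values measure the spread between these libraries. Lists, families and domains were described by counts and medians beside those of all tested genes. The genes named are, in each direction, the 12 called genes with the largest fold change and the 12 with the largest difference of mean FPKM whose libraries do not overlap, the 12 most abundant on and off genes, up to 6 called members of each list, family and transcription factor family by fold change, and the marker genes. The 15 others were chosen after their values were seen. The lists, families and comparisons were chosen with earlier results of these data known. Gene names, coordinates and promoters came from RefSeq TAIR10.1. Alternatives were pseudocounts of 0.1 and 5, filters, 2 scalings, a model of AC and BC alone, a replicate block and leaving out each library. Python 3.11.15, pandas 2.3.3 and numpy 2.4.6 were used.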

Additional observations from a re-analysis of the deposited data

How the results depend on the processing

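The counts of genes higher in AC and in BC were 3237 and 3131, and with a pseudocount of 0.1, no filter on low values, another filter, another scaling or a model of AC and BC alone they ran from 2689 to 3383 and from 2524 to 3184. With a pseudocount of 5 they were 2154 and 2341, and with genes at 0 in any of the 6 libraries left out 1936 and 2100, where 12306 genes were tested. The lowest and highest counts with 1 library left out were 2878 and 3208 for AC and 2835 and 3242 for BC. Genes on only in AC numbered 189, and 468 with on at 5 FPKM, 50 with on at 20 FPKM and 91 with off at 0. Genes on only in BC numbered 158, and 404, 52 and 84 under these rules. With 1 library left out the counts ran from 191 to 307 and from 159 to 245. Of 143 named genes that were called, 17 lost the call under an alternative and none changed direction. These were AGO2, ARR4, CYCD6;1, ERF71 and VHA-E3 in the model of AC and BC alone, CSLD6, DCL1, DME, ERL1, CNA and PAP17 with a pseudocount of 5, YUC4 with a pseudocount of 0.1, and BSK2, HSP101, HSP17.6A, HSP21 and HSP70 without the filter, among other settings. The uncalled genes DRM2 and CDKB1;1 lay near 0 and changed sign, DRM2 to 0.05 with median-ratio scaling and, with 1 library left out, DRM2 to between -0.07 and 0.03 and CDKB1;1 to between -0.17 and 0.15. Median fold changes of lists and families moved as well, judged against the spread of the median over pairs of an AC and a BC library. With median-ratio scaling 28 moved by that spread or more and 91 did not. Over all fits with 1 library left out, 149 medians moved and 565 did not. The cause of these shifts was not tested. The replicate numbers are shared between AC and BC, but same-numbered libraries did not deviate together (correlations of -0.054, 0.001 and -0.059). With 3 libraries per cell this cannot exclude a pairing of the samples. The main fit modelled none, and a fit with the replicate number as a block gave 3191 and 3074 genes. The FPKM tables hold no counts and the read totals the study lists were not used here, so no counting error or floor was set for weakly expressed genes.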

Other observations

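Protein domains named in the reference annotation showed further groups that stood apart, and those below were picked from 729 domains with at least 10 tested members after their values were seen. They are given as a description. Ion carriers, among them a family not picked in this way, went both ways. Of 19 cation/H+ exchangers 2 were higher in AC and 11 in BC, and of 12 KUP potassium transporters 1 was higher in AC, while 7 were higher in BC, beside 19.0% and 18.4% of all tested genes. Of 33 plasma membrane and calcium ATPases, in contrast, 10 were higher in AC and 7 in BC. CHX18, a cation/H+ exchanger, had 3.9, 0.53 and 0 FPKM in AC and 40.4, 35.3 and 41.6 FPKM in BC, and CHX19 was listed at 0 in every AC library and had 11.3, 14.1 and 10.9 FPKM in the BC libraries. Families of the membrane system also went both ways, and among families not picked in this way 18 of 73 SNAREs and RAB GTPases were higher in AC and 11 in BC. Of 35 O-fucosyltransferases 6 were higher in AC and 20 in BC, and of 12 nonaspanins none was higher in AC, while 6 were higher in BC. MSR2, of the O-fucosyltransferase family and linked to mannan synthesis, had 58.4, 66.2 and 48.5 FPKM in AC and 239, 212 and 229 FPKM in BC. Purple acid phosphatases release phosphate, and PAP20 had 13.3, 6.4 and 4.65 FPKM in AC, against 594, 527 and 555 FPKM in BC (log2 fold change -6.05 ± 0.29 (SE), limma adjusted p = 2.89e-08). PAP17, of the same family, ran the other way, with 9.02, 7.18 and 11.7 FPKM in AC and 3.63, 2.54 and 2.55 FPKM in BC.

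Among the domains that leaned to AC, 16 of 27 genes with a C1-like domain were higher in AC and 3 in BC. These zinc-binding proteins are mostly without a known role, and most were weakly expressed, with a sum of 162 FPKM in AC and 103 FPKM in BC. Of 14 dynamin-like GTPases, which pinch off membranes, 6 were higher in AC and none in BC. DRP4A had 29.1, 25.7 and 43.5 FPKM in the AC libraries and was listed at 0 in every BC library, and DL1E had 61.1, 59.6 and 71.3 FPKM in AC and 15.3, 13.2 and 14.8 FPKM in BC. Of 25 late embryogenesis abundant proteins of group 2 9 were higher in AC and none in BC, and of 12 genes with the domain of linker histones 5 and none.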
